A study of Mus musculus with 11 samples.

Results

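Transcript levels of 7 genes for secreted acute phase and complement proteins were examined across 11 RNA sequencing libraries of WFU3, a mouse prostate epithelial stem cell line. The genes were Saa3, Lcn2, Lbp, Hp, Cp, C3 and Cfb, chosen by symbol from a table of 48299 genes. All 7 were among the 14346 genes that passed the filter on low counts. The 7 genes and the gene lists used further on were chosen with earlier results of these data known. Their shares of called genes are therefore descriptions and not tests of enrichment. Lentiviral short hairpin RNAs were used to lower Map3k7, the gene of the kinase TAK1, and Chd1, the gene of an ATPase that remodels chromatin, each alone or both at once. The shControl group held 3 libraries with control hairpins only: an unnumbered line at passage 30 with puromycin and neomycin markers (replicate 1), and clones 4 and 5 at passage 52 (replicates 2 and 3). The shMap3k7 group held clone 1 at passage 49 and clone 7 at passage 47 (replicates 1 and 2), each with a Map3k7 hairpin and a control hairpin. The shChd1 group held hairpin constructs 96526 at passage 52 and 96528 at passage 50, both in control clone 4, so that it rests on 1 parent clone. The shDouble group held both Chd1 constructs in Map3k7 clone 1 at passage 49 (replicates 1 and 2) and in Map3k7 clone 7 at passage 48 (replicates 3 and 4). The numbered clones were picked from single colonies, so each library carries the traits of its clone as well as its hairpins, and Map3k7 knockdown was measured in 2 such clones. Apart from shControl replicate 1, all lines carried a GFP and a puromycin marker. All cells grew in complete medium, and the labels' protocols name no cytokine or endotoxin.

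The acute phase response is the change in secreted proteins that follows infection or injury. It is best known in the liver, where interleukin 6 acts through the receptor subunit gp130 and STAT3, and interleukin 1 and TNF act through NF-kB, with C/EBP factors at many of the target promoters. Epithelia make several of the same proteins locally: serum amyloid A3 binds lipids and is made outside the liver, lipocalin 2 withholds iron from bacteria by binding their siderophores, and the LPS-binding protein passes endotoxin to CD14. Haptoglobin binds free haemoglobin, ceruloplasmin is a copper-carrying ferroxidase, C3 is the central component that all complement pathways cleave, and factor B supplies the protease of the alternative pathway convertase. TAK1 is a kinase between receptors for interleukin 1, TNF and endotoxin and the kinases of the NF-kB and MAP kinase pathways.

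On the GRCm38 build with GENCODE M21 genes, Saa3 lies at chr7:46711998-46715700 on the minus strand and Lcn2 at chr2:32384633-32388252 on the minus strand. Lbp lies at chr2:158306493-158332852 on the plus strand, Hp at chr8:109575128-109579172 on the minus strand and Cp at chr3:19957054-20009145 on the plus strand. C3 lies at chr17:57203970-57228136 and Cfb at chr17:34856374-34862518, both on the minus strand. Cp overlaps Hps3 on the other strand, which had 234 to 418 counts per library, and the strand setting of the counting is not given in the sources used here, so reads of the 2 genes in the shared stretch cannot be told apart. Cfb overlaps a readthrough gene, Gm20547, that had 0 counts in every library.

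The 250 bases before the start of 4 of these genes are shown because each of these genes was lower with both knockdowns, as given further on, and because transcripts of C/EBP factors were measured in the same libraries. They come from the RefSeq promoter table of GRCm38.p6, in which Lbp, Hp and Cfb were not matched. The capitals mark matches to TTGCNNAA, a C/EBP-like motif searched on both strands.
Saa3 (chr7:46715677-46715926, minus strand): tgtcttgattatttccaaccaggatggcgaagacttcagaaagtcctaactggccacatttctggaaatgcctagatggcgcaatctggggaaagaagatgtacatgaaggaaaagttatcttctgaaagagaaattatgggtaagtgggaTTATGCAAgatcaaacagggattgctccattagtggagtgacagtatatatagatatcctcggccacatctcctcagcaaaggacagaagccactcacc
Lcn2 (chr2:32387740-32387989, minus strand): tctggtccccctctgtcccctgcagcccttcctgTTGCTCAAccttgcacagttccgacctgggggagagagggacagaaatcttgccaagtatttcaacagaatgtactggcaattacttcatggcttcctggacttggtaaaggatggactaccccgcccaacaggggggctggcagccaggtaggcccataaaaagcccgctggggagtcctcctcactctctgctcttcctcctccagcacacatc
C3 (chr17:57228137-57228386, minus strand): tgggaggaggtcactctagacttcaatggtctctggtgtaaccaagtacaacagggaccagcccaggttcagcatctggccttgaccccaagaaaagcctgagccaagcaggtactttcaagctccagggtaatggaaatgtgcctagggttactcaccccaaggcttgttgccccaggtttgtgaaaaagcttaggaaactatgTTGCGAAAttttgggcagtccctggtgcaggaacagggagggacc
Cp (chr3:19956999-19957248, plus strand): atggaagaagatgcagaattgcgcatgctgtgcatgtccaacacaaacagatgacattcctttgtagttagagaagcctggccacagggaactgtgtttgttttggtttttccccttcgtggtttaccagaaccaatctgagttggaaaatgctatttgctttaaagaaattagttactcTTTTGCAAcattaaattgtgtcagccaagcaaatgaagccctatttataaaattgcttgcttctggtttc
The match lay 99 to 92 bases before the start in Saa3, 216 to 209 in Lcn2, 45 to 38 in C3 and 70 to 63 in Cp. Among all 32851 windows of the same length in the table, 9.56% held at least 1 match to this motif. The other Cp window in the table, which starts further upstream and overlaps the one shown, held none. The looser form TTNCNNAA, which includes every match of the stricter one, was found in all 5 windows of these genes and in 36.8% of all windows. Neither GGGNNNTTC, a kappaB-like motif found in 11.8% of all windows, nor TTCNNNGAA, a STAT-like motif found in 7.02%, occurred in these 5 windows. A match is a run of letters and not a bound site. The GENCODE genes of Saa3, Lcn2 and Cp begin upstream of the RefSeq starts of the windows shown. The Lcn2 window lies within the GENCODE gene, as do most of the Cp window shown and its match. The other Cp window, which held no match to the stricter motif, ends just before the GENCODE start of Cp.

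Library totals ran from 14132371 to 23163709 counts, and levels are given as CPM, that is counts relative to the library total, scaled by TMM (a trimmed mean) and not corrected for gene length. A gene with 3 counts stood at 0.133 to 0.217 CPM, depending on the library. Map3k7 itself was 31.0% of its shControl mean in shMap3k7 and 30.7% in shDouble. Chd1 was 72.6% of its shControl mean in shChd1 and 91.3% in shDouble, where its range overlapped that of shControl. The shDouble libraries derive from the Map3k7 clones, which had 221 and 238 CPM of Chd1 against 195 to 212 in shControl. Relative to the same clone without a Chd1 hairpin, Chd1 was at 0.897 and 0.735 in Map3k7 clone 1 with constructs 96526 and 96528. It was at 0.815 and 0.797 in Map3k7 clone 7 and at 0.746 and 0.771 in control clone 4. The summed level of 6 epithelial keratin and junction markers was 3819 to 9649 CPM in shControl, 2018 to 2273 in shChd1, 10133 to 10310 in shMap3k7 and 9903 to 10481 in shDouble. Hepatocyte markers summed to at most 0.311 CPM in any library, with Alb, Ttr, Ahsg, Cyp2e1 and Fgb at 0 throughout, and 9 leukocyte markers summed to 1.45 to 4.11 CPM. shControl replicate 1 stood apart with 51.1 CPM of 5 endothelial markers against at most 0.498 elsewhere, and counts of called genes without it are given with the results. Every library of a group is a different line or a different Chd1 construct and none was repeated, so p-values measure the spread between lines and constructs and the technical spread together, and libraries of 1 clone are not independent of each other.

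In shControl cells the 7 transcripts spanned a wide range of levels. Per kilobase of transcript, Lcn2 was the highest at 826 ± 401 CPM per kb (SD, n = 3), and it ranked between 30 and 116 of 47913 genes in the 3 control libraries. C3 at 147 ± 78.5 CPM per kb and Cp at 92.7 ± 60.4 CPM per kb followed, with overlapping ranges, and the range of C3 did not reach that of Lcn2. Saa3 at 27.5 ± 9.33 CPM per kb and Lbp at 19.5 CPM per kb (11.4 to 35.7) also overlapped each other. Hp at 0.673 ± 0.358 CPM per kb and Cfb at 0.414 ± 0.382 CPM per kb were the lowest, below every library of the other members. The other serum amyloid A genes were near 0, with 7 counts of Saa1, 18 of Saa2 and 2 of Saa4 over the 3 control libraries, against 808 of Saa3. In shChd1, Lcn2 ranked between 6 and 9 of all genes, while in shMap3k7 it ranked 2296 and 10222.

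**Figure D1:**
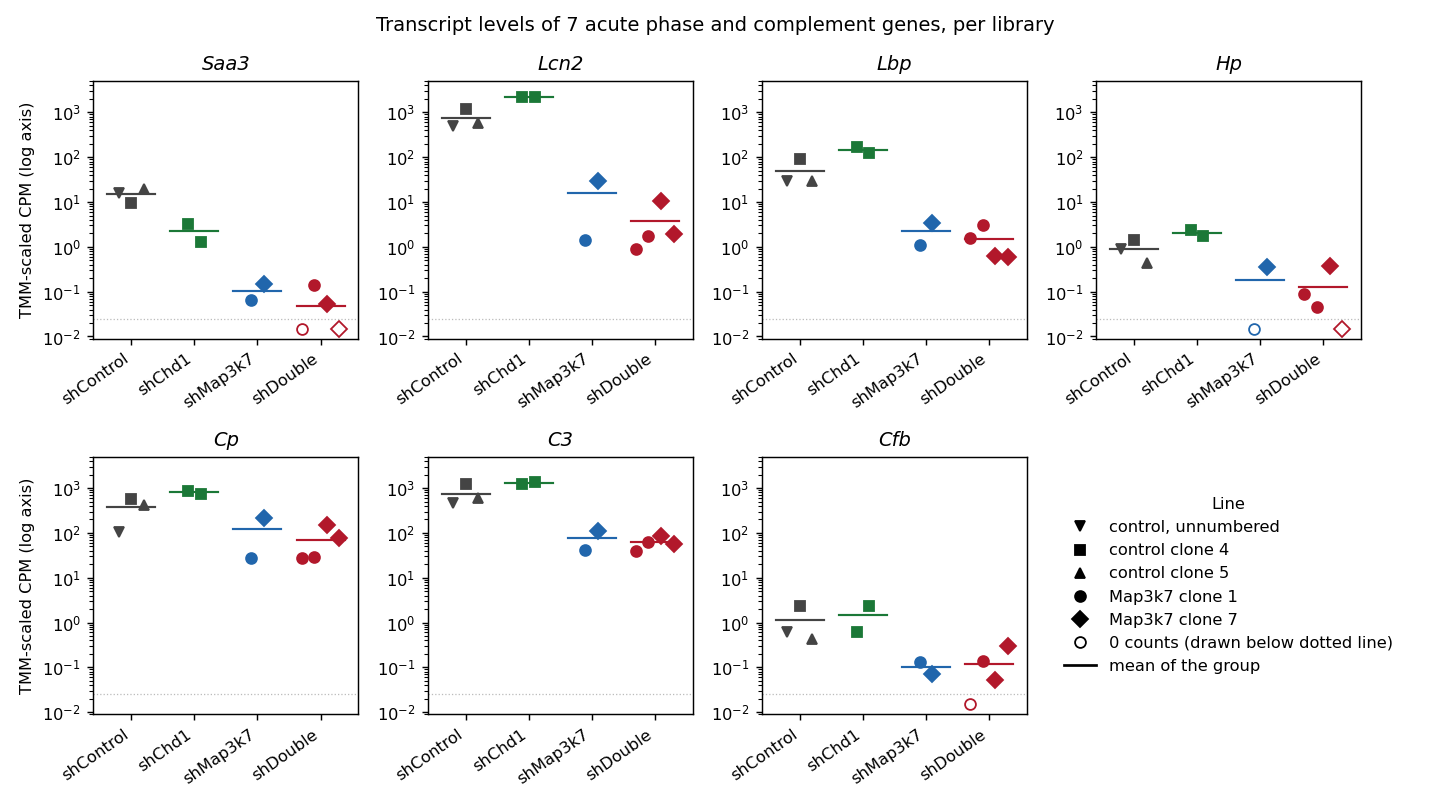
TMM-scaled CPM of each gene on a log axis (vertical) in the 4 groups (horizontal), 1 symbol per library shaped by line, with the group mean as a line and libraries of 0 counts drawn open below the dotted line. The libraries of shMap3k7 and shDouble lie below those of shControl for each gene except Cp, where clone 7 reaches into the control range.

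The first comparison asked how the transcripts differed between cells with Map3k7 knockdown and control cells. With Map3k7 knockdown, 4 of the 7 transcripts, Saa3, Lcn2, Lbp and C3, fell by 3.31 to 7.11 on the log2 scale, and the other 3 were not called. Of all 14346 genes tested, 11.9% were called in this comparison and 7.08% were called lower. A gene is called here at a Benjamini-Hochberg adjusted p under 0.05 in the quasi-likelihood test of edgeR, fitted to all 4 groups. The median log2 fold change of the 7 genes was -3.39, against -0.0086 over all genes tested. The groups did not overlap for 6 of the 7 genes, all lower, where 22.0% of all genes tested were lower without overlap.

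Saa3, the extrahepatic serum amyloid A, stood at 16.1, 9.70 and 19.96 CPM in the control libraries and at 0.065 and 0.145 CPM in Map3k7 clones 1 and 7. The clones together had 3 counts against 808 in the controls, a ratio of 147 with a 95% exact counting interval of 50.1 to 714. The adjusted p was 0.00122, the smallest among the 7. Saa3 was thus at the limit of detection in both clones.

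Lcn2, the siderophore-binding lipocalin, stood at 508, 1177 and 583 CPM in the control libraries. It was at 1.43 CPM in clone 1 and 30.1 CPM in clone 7, both far below every control although they differed from each other. The log2 fold change was -5.59 ± 1.22 (SE), with an adjusted p of 0.0179. It was -9.05 without shMap3k7 replicate 2, the library of clone 7, and with counts summed per line it was not called (adjusted p = 0.0702).

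Lbp, which hands endotoxin to CD14, was at 28.9, 90.1 and 28.8 CPM in the controls and at 1.11 and 3.48 CPM in the clones. Its log2 fold change was -4.45 ± 0.80 with an adjusted p of 0.00865. Control clone 4 was the highest of the 3 controls for Lbp, as it was for Lcn2, C3, Cfb, Hp and Cp, while it was the lowest for Saa3.

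The iron and copper proteins were not called. Hp was at 0.874, 1.401 and 0.440 CPM in the controls, that is 49 counts in all, and at 0 and 0.362 CPM in the clones, with a log2 fold change of -2.33 ± 1.13 and an adjusted p of 0.1996. Cp was at 107, 584 and 429 CPM in the controls and at 27.7 CPM in clone 1 and 220 CPM in clone 7. Clone 7 was above 1 of the controls, and the log2 fold change of -1.60 ± 0.98 had an adjusted p of 0.306. Without shMap3k7 replicate 2 the estimates were -7.05 for Hp and -3.76 for Cp, and without shMap3k7 replicate 1 they were -1.31 and -0.77.

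Among the complement genes, C3 was at 456, 1214 and 597 CPM in the controls and at 41.9 and 111 CPM in the clones. Both clones were below every control, and C3 kept 10.1% of its mean control level, a log2 fold change of -3.31 ± 0.53 with an adjusted p of 0.00557. Cfb was low everywhere, with 0.624, 2.34 and 0.440 CPM in the controls and 0.130 and 0.072 CPM in the clones. The clones had 3 Cfb counts against 63, a ratio of 11.46 with a counting interval of 3.75 to 57.1, and the adjusted p was 0.1005. Without shMap3k7 replicate 1, or with only the libraries of both groups in the fit, 1 of the 7 genes, Saa3, was called, and without shControl replicate 1 the count was again 4. A fit with 1 library left in a group assumes that it varies like the other groups.

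**Figure D2:**
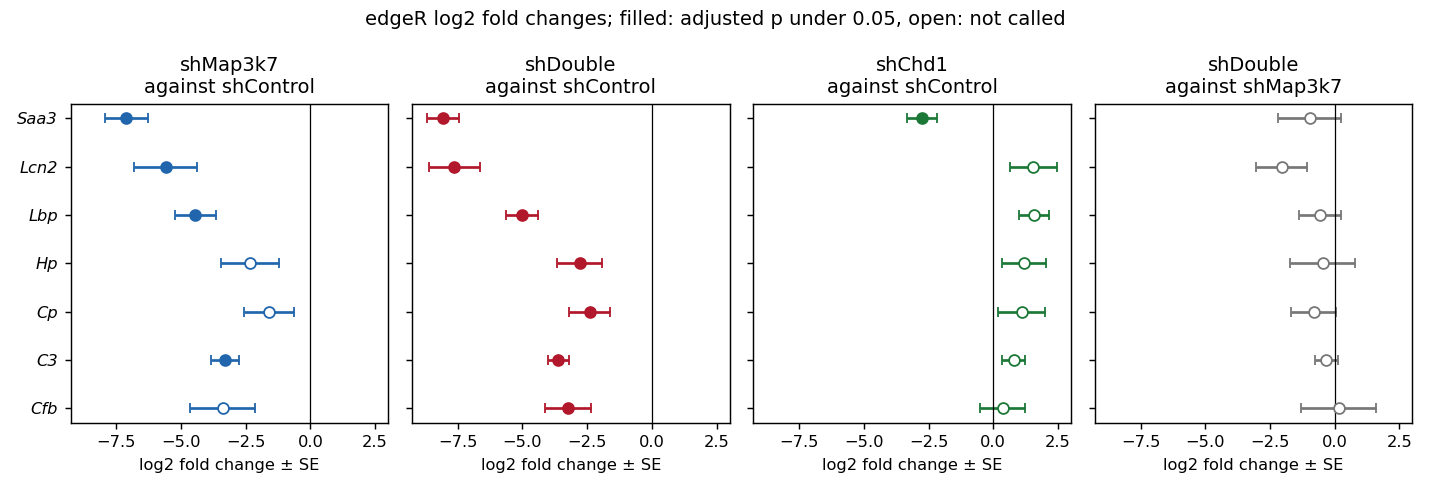
edgeR log2 fold changes with their SE (horizontal) for the 7 genes (vertical) in 4 comparisons, filled where the adjusted p is under 0.05. Both Map3k7 knockdown groups lie to the left of 0 for each gene, from -8.08 for Saa3 to -1.60 for Cp, while in shChd1 only Saa3 lies to the left.

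In cells with both knockdowns all 7 transcripts were lower than in shControl, where 23.8% of all genes tested were called and 13.6% were called lower. The median log2 fold change of the 7 was -3.62, against -0.0015 over all genes tested. This comparison shares its control libraries with the previous one, so both carry the same control values. Groups did not overlap for 6 of the 7 genes, against 16.7% of all genes lower without overlap.

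Saa3 was at 0 and 0.138 CPM in the shDouble libraries of clone 1 and at 0.052 and 0 CPM in those of clone 7, 4 counts in all. Its log2 fold change was -8.08 ± 0.63 with an adjusted p of 4.79e-05. Lcn2 was at 0.884, 1.79, 10.7 and 1.96 CPM, with a log2 fold change of -7.64 ± 1.00 and an adjusted p of 8.01e-04. All 4 libraries lay below every control for both genes.

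Lbp was at 1.55 and 3.12 CPM in clone 1 and 0.6248 and 0.594 CPM in clone 7, which put its log2 fold change at -5.02 ± 0.60 (adjusted p = 5.37e-04). C3 was at 40.4, 62.3, 85.0 and 57.7 CPM, 8.12% of its mean control level (log2 -3.62 ± 0.41, adjusted p = 3.89e-04). C3 thus remained well above detection in every library with a Map3k7 hairpin, unlike Saa3.

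The other 3 transcripts passed the threshold by less. Cfb was at 0, 0.138, 0.052 and 0.297 CPM (log2 -3.24 ± 0.89, adjusted p = 0.0254) and Hp at 0.088, 0.046, 0.364 and 0 CPM (log2 -2.80 ± 0.87, adjusted p = 0.0411). Cp was at 28.1 and 28.9 CPM in clone 1 and at 150 and 75.2 CPM in clone 7, with a log2 fold change of -2.41 ± 0.78 and an adjusted p of 0.0481. Its highest value, 150 CPM, lay above the lowest control of 107 CPM. The count of 7 fell to 4 without shControl replicate 2, without shDouble replicate 1, without shDouble replicate 2, and with counts summed per line, and the 3 genes lost were Cfb, Hp and Cp each time. It was 6 without shControl replicate 1. Over all alternatives that gave a value, the Cp call was lost in 9 of 18, the Hp call in 8 of 17 and the Cfb call in 5 of 17, and Hp and Cp were also lost without either shChd1 library and without shDouble replicate 4.

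The shChd1 libraries showed the levels under Chd1 hairpins alone. Only Saa3 was called there, as lower, where 2.91% of all genes tested were called and 2.24% as lower. It was at 3.24 CPM with construct 96526 and 1.26 CPM with construct 96528, both below every control (log2 -2.76 ± 0.57, adjusted p = 0.0394). This call was lost in 10 of the 11 fits that left out 1 library, that is without each library except shControl replicate 2, with adjusted p from 0.0546 to 0.426, and with the parent line as a block the log2 fold change was -2.10 ± 0.45 with an adjusted p of 0.0666.

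The other 6 transcripts were above shControl in their estimates and were not called. Lcn2 was at 2181 and 2221 CPM, above the highest control of 1177 CPM, with a log2 fold change of 1.54 ± 0.91 and an adjusted p of 0.315. Lbp was at 165 and 126 CPM, also above every control (log2 1.56 ± 0.58, adjusted p = 0.135), and it was called without shControl replicate 2, at a log2 fold change of 2.34 and an adjusted p of 0.0136. Both genes were thus at their highest of all groups in these libraries.

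Cp was at 847 and 749 CPM (log2 1.09 ± 0.90, adjusted p = 0.476) and Hp at 2.36 and 1.77 CPM (log2 1.18 ± 0.84, adjusted p = 0.402). C3 at 1229 and 1378 CPM was just above the control range (log2 0.79 ± 0.45, adjusted p = 0.306), and Cfb at 0.622 and 2.34 CPM lay within it (log2 0.37 ± 0.87, adjusted p = 0.824). In all, 5 genes lay above every control and 1 below, where 23.1% of all genes tested were higher and 23.4% were lower without overlap. Since both shChd1 libraries derive from control clone 4, which had the highest control level of these 6 genes, the comparison with that parent is given next.

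Within control clone 4, each Chd1 hairpin library was set over the same clone without it. The ratio of Lcn2 was 1.85 with construct 96526 and 1.89 with construct 96528, that of Lbp 1.84 and 1.397, that of Cp 1.45 and 1.28, and that of Hp 1.69 and 1.26. C3 at 1.01 and 1.14 was near its parent, and Cfb at 0.266 and 1.00 differed between constructs. Saa3 was below its parent with both constructs, at ratios of 0.333 and 0.130. With the line as a block, no estimate of the other 6 in shChd1 passed the threshold, with Lcn2 at log2 0.90 ± 0.48 (adjusted p = 0.403) and Lbp at 0.69 ± 0.39 (adjusted p = 0.430).

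In Map3k7 clone 7 the same constructs went with lower levels of several of these genes. The ratio of Lcn2 was 0.356 and 0.0651, that of Lbp 0.180 and 0.171, that of Cp 0.682 and 0.342, and that of C3 0.765 and 0.520. In Map3k7 clone 1 the ratios were 0.618 and 1.25 for Lcn2, 0.965 and 1.49 for C3, 1.01 and 1.04 for Cp, and 1.3998 and 2.82 for Lbp, the last from 17 counts in the parent. Saa3, Cfb and Hp had under 10 counts in both Map3k7 parent clones, and no ratio is given for them. For Lcn2, Lbp and Cp the ratios were thus above 1 in control clone 4 and below 1 in Map3k7 clone 7, a difference that was not tested gene by gene between these single clones.

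**Figure D3:**
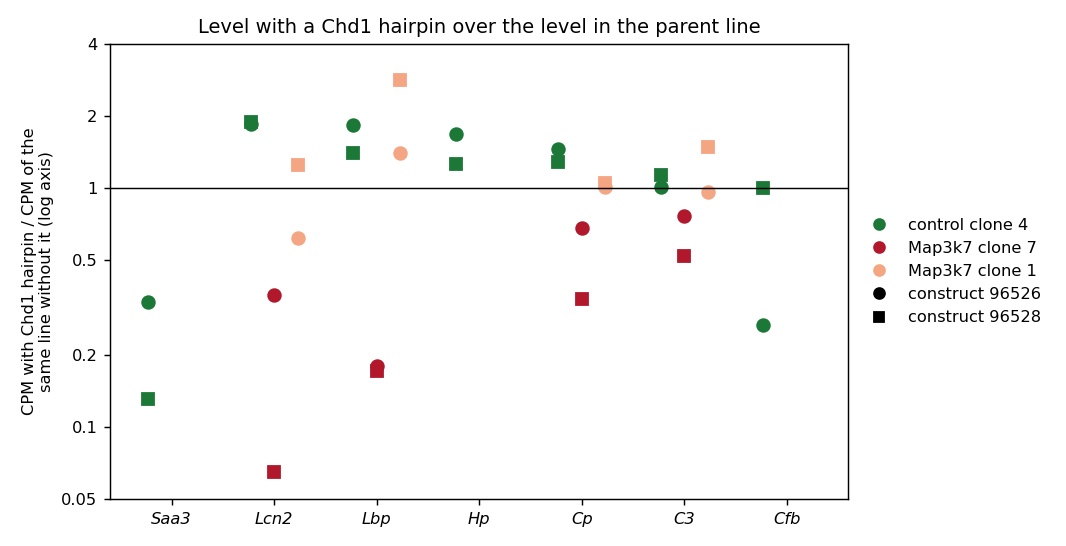
Ratio of CPM with a Chd1 hairpin to CPM of the same clone without it (vertical, log axis) for each gene (horizontal), 1 symbol per library, coloured by clone and shaped by construct; genes with under 10 counts in the parent are left out. For Lcn2, Lbp and Cp the 2 ratios in control clone 4 lie above 1 and the 2 in Map3k7 clone 7 below 1.

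Adding a Chd1 hairpin to Map3k7 knockdown was tested over both clones. None of the 7 genes and 0% of all 14346 genes tested were called between shDouble and shMap3k7 in edgeR, with 115 genes and none of the 7 at an unadjusted p under 0.05. The largest estimate was that of Lcn2, at log2 -2.04 ± 0.98 with an adjusted p of 1, and with the clone as a block it was -1.79 ± 0.52 (unadjusted p = 0.00694, adjusted p = 1). Saa3, C3, Lbp, Hp and Cp had estimates from -0.96 to -0.32 and Cfb of 0.15, each smaller than its SE.

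The interaction, the Chd1 hairpin effect with Map3k7 knockdown less that without it, was called for 0% of all genes and none of the 7 in edgeR, with 1998 genes at an unadjusted p under 0.05. Lcn2 was the only 1 of the 7 among those, at log2 -3.58 ± 1.34 (unadjusted p = 0.0225, adjusted p = 0.296), and with the line as a block at -2.70 ± 0.72 (unadjusted p = 0.00406, adjusted p = 0.186). Without shMap3k7 replicate 2 the Lcn2 estimate was -0.14 (adjusted p = 0.992). The interaction sets both Map3k7 clones together against the controls, so it does not test the differences between single clones given above.

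With the Chd1 hairpins in common, shDouble was compared with shChd1. All 7 transcripts were lower in shDouble, where 44.8% of all genes tested were called and 22.2% were lower. Lcn2 had the largest difference, log2 -9.18 ± 1.07 (adjusted p = 1.83e-04), followed by Lbp at -6.58 ± 0.65, Saa3 at -5.32 ± 0.70, C3 at -4.41 ± 0.44, Hp at -3.98 ± 0.90, Cfb at -3.61 ± 0.95 and Cp at -3.50 ± 0.86. No library of shDouble reached the shChd1 range for any of the 7, where 31.9% of all genes tested were lower without overlap. With counts summed per line, which leaves shChd1 with 1 sample, 4 of the 7 were called.

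Both Map3k7 clones were then compared over their 6 libraries, 3 each, in the model with a mean per line. The 3 libraries of a clone are not separate clones, so these p-values do not measure the spread between clones. Lower levels in clone 1 than in clone 7 were called for Lcn2, C3 and Cp, 3 of the 7, where 27.6% of all genes tested were called and 12.2% were lower in clone 1. Cp was at 27.7, 28.1 and 28.9 CPM in clone 1 against 220, 150 and 75.2 CPM in clone 7 (log2 -2.31 ± 0.26, adjusted p = 5.13e-04). Lcn2 was at 1.43, 0.884 and 1.79 CPM against 30.1, 10.7 and 1.96 CPM (log2 -3.11 ± 0.58, adjusted p = 0.00495). The clones did not overlap for either gene, although the shDouble library of clone 7 with construct 96528 came close to clone 1 for Lcn2.

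C3 was at 41.9, 40.4 and 62.3 CPM in clone 1 against 111, 85.0 and 57.7 CPM in clone 7, with overlap (log2 -0.78 ± 0.22, adjusted p = 0.0280). The C3 call was lost without either shMap3k7 library (adjusted p = 0.167 and 0.165), without shDouble replicate 1 (0.0986) and without shDouble replicate 3 (0.0981). Saa3, Cfb, Lbp and Hp were not called between the clones, with adjusted p from 0.178 to 0.947. Lbp was called as higher in clone 1, at log2 1.93 (adjusted p = 0.0226 and 0.0219), without shMap3k7 replicate 1 or without shMap3k7 replicate 2, and Hp as lower in clone 1 without shDouble replicate 4 (adjusted p = 0.0446).

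Across the 11 libraries the 7 genes varied together to different degrees. Pearson's r of log2 CPM was highest for Lcn2 and C3, at 0.987, and lowest for Saa3 and Cp, at 0.646, given as a description because libraries of a clone are not independent and the gap between groups sets much of it. Among the 9909 genes whose mean was 5 CPM or more, the 3 most like Lcn2 were Vnn3 (r = 0.994), C3 (0.987) and Osmr (0.987), and those most like C3 were Glrx (0.993), Slc7a2 (0.992) and Osmr (0.992). Osmr encodes the signalling subunit of the oncostatin M receptor. The genes most like Saa3 were Pcdh7, Trip10 and Plcd1 (r = 0.975 to 0.978), those most like Lbp were Zfyve1, Rassf10 and Rbms3 (0.991 to 0.997), and those most like Cp were Stxbp3, Rin2 and Camk1 (0.979 to 0.988). For the scarce transcripts the likest were Pi4kb, Ifngr1 and Zbtb7c for Cfb (0.955 to 0.974) and Ogfr, Slc17a5 and Armcx1 for Hp (0.962 to 0.966).

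Other acute phase proteins were given from a list of 38 genes, 19 of them with 0 counts in every library, Crp and Apcs included, and 11 tested. Of these 11, 3 fell with Map3k7 knockdown and 8 with both knockdowns, and none rose, against 7.08% and 13.6% of all genes lower. Serpina3n, Serpina3g, Trf and Agt had at most 2 counts in shMap3k7 and in shDouble. They passed the filter on low counts only through shControl or shChd1, so the direction of these counts and medians is partly set by the filter. The same holds for genes of the later lists with as few counts in these groups. The median log2 fold change in shMap3k7 was -4.92, or -2.83 with the 3 genes at 0 counts set to their bound, and that in shDouble was -3.67. Steap4, a metalloreductase, went from 18.4 ± 6.61 CPM in shControl (n = 3) to 0.246 ± 0.164 in shMap3k7 (n = 2) and 0.136 ± 0.158 in shDouble (n = 4), with adjusted p of 9.75e-04 and 4.03e-05. Il1rn, the interleukin 1 receptor antagonist, went from 14.7 ± 17.7 CPM to 0.489 ± 0.231 and 0.422 ± 0.304 (adjusted p = 0.0229 and 0.00250), and it stood at 86.1 ± 11.03 CPM in shChd1, not called at an adjusted p of 0.0791. With the line as a block, that is against 1 parent library alone, it was called higher there, at log2 1.29 ± 0.23 (adjusted p = 0.0378).

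Itih2, a heavy chain of the inter-alpha trypsin inhibitors, had 2 counts in shMap3k7 and 3 in shDouble against 220, ratios of 60.0 (counting interval 16.4 to 499) and 110 (37.3 to 539), both called. Orm1, orosomucoid, was at 37.0 ± 12.7 CPM in shControl, 4.61 ± 5.78 in shMap3k7, where it was not called (adjusted p = 0.0949), and 2.97 ± 2.91 in shDouble (0.0120). In shChd1 it was at 16.5 ± 1.41 CPM. It was called lower there only with the line as a block, against 1 parent library (log2 -1.64 ± 0.21, adjusted p = 0.0105). Serpina3g had 0 counts in shDouble against 33 in shControl, at least 16.5-fold lower against 3 counts over the group (adjusted p = 0.0145), and Trf, transferrin, had 2 counts against 39, a ratio of 29.3 (7.59 to 251, adjusted p = 0.0182). Ptx3, the long pentraxin and the most abundant of the list, was at 80.3 ± 44.2 CPM in shControl and 17.3 ± 9.93 and 17.7 ± 16.7 CPM in shMap3k7 and shDouble, not called (adjusted p = 0.153 and 0.0542). The 3 calls in shMap3k7 became 1 without shMap3k7 replicate 1 or without shMap3k7 replicate 2 and 5 without shControl replicate 3, and the 8 calls in shDouble became 5 without shControl replicate 1.

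Among 28 other complement components, 9 were tested and 6 of them fell both with Map3k7 knockdown and with both knockdowns, with medians of -3.50 and -4.17 over the 9, against 7.08% and 13.6% of all genes called lower. The 6 were C1ra, C1s1 and C1rl, proteases of the classical pathway or their relatives, C4b, which that pathway cleaves, Masp1, a protease of the lectin pathway, and Colec12, a collectin. C1ra went from 17.6 ± 10.2 CPM in shControl to 0.735 ± 0.395 in shMap3k7 and 0.567 ± 0.120 in shDouble (adjusted p = 0.00125 and 5.67e-05), and C1s1 from 19.1 ± 14.8 to 1.71 ± 1.68 and 0.685 ± 0.470 CPM (0.0288 and 0.00145). C4b had 0 counts in shMap3k7 against 79 in shControl, at least 14.4-fold lower (adjusted p = 0.0404), and C4a, Cfp and Masp2 were not called. C4a and C4b are near-identical copies, so that their split depends on how shared reads were divided. The 6 calls in shMap3k7 became 1 without shMap3k7 replicate 1, 2 without shMap3k7 replicate 2 or either shChd1 library, and 3 without shDouble replicate 1.

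Of 21 complement regulators and receptors, 20 were in the table and 7 tested, of which 2 were called lower in shMap3k7 and 2 lower and 1 higher in shDouble, where 13.6% of all genes were called lower and 10.2% higher. Csmd1, a membrane inhibitor of complement, had 1 count in shMap3k7 against 545, a ratio of 297 (53.2 to 11768), and was called lower in both groups. Clu, clusterin, the most abundant of the list, was at 399 ± 216 CPM in shControl, 1069.6 ± 243 in shMap3k7, where it was not called (adjusted p = 0.0509), and 1284 ± 339 in shDouble, where it was called higher (0.00964). Cr1l, a membrane regulator of C3 convertases, was at 36.1 ± 4.61, 34.3 ± 2.90 and 33.5 ± 3.17 CPM in the same groups and was not called. Without either shMap3k7 library none of the 7 was called lower in shMap3k7.

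Receptors and partners of the 7 proteins were tested for 13 of 18 genes. In shMap3k7, 5 fell and none rose, and in shDouble 7 fell and 1, Tfrc, rose, with medians of -0.62 and -0.65, against 7.08% and 13.6% of all genes called lower. Lrp1, an endocytic receptor, fell from 782 ± 310 CPM to 19.7 ± 4.80 and 17.8 ± 4.15 (adjusted p = 1.80e-04 and 8.94e-06). Cd14, to which the LPS-binding protein passes endotoxin, fell from 96.4 ± 26.8 to 13.8 ± 1.01 and 12.0 ± 2.42 CPM (4.56e-04 and 2.40e-05), and Tlr2 and Tlr4 fell by 1.299 and 0.62 on the log2 scale in shMap3k7. Of the ferritin subunits, Fth1 fell by 1.59 and 1.61 on the log2 scale while Ftl1, at 2031 ± 57.8 CPM in shControl, was not called. The Tfrc call was lost without shControl replicate 2. The 5 calls in shMap3k7 became 2 without shMap3k7 replicate 1 and 3 without shMap3k7 replicate 2 or without shControl replicate 2.

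Inducers and transcription factors of the acute phase response were tested for 27 of 32 genes. In shMap3k7 18 fell and none rose, and in shDouble 21 fell and none rose, with medians of -0.85 and -0.80, against the same 7.08% and 13.6%. Il6, the main liver inducer, fell from 16.8 ± 6.22 CPM to 0.351 ± 0.221 in shMap3k7 and 0.142 ± 0.101 in shDouble (adjusted p = 8.47e-04 and 2.80e-05). Osmr fell from 62.9 ± 20.5 to 7.68 ± 3.69 and 6.48 ± 2.23 CPM, and Stat3 from 304 ± 51.1 to 91.0 ± 21.0 and 90.5 ± 12.4 CPM, all called. Socs3, a feedback inhibitor of that pathway, fell by 2.32 and 2.39 on the log2 scale, and Bcl3, an NF-kB cofactor, fell by 2.64 and by 3.02.

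Cebpd, a C/EBP factor, fell from 105 ± 11.9 CPM in shControl to 16.1 ± 2.19 in shMap3k7 and 12.6 ± 2.92 in shDouble (adjusted p = 3.23e-04 and 1.05e-05). Cebpb, named after its values were seen, fell from 269 ± 85.4 to 79.1 ± 37.7 and 78.5 ± 15.4 CPM (0.0109 and 0.00149). Nfkb1, the most abundant of the list, fell by 0.65 and 0.54 on the log2 scale, and Il6st, which encodes gp130, by 0.87 and 0.74. The 18 calls in shMap3k7 became 6 without shMap3k7 replicate 1 or without shMap3k7 replicate 2. Under Chd1 hairpins alone only Tlr4 and Rel of these 5 lists were called, both higher, where 0.662% of all genes tested were higher, at log2 0.71 ± 0.15 (adjusted p = 0.0429) and 0.53 ± 0.12 (0.0470), and neither was called with the line as a block (0.0698 and 0.129).

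With counts summed per line, which leaves shMap3k7 and shDouble with 2 samples each, fewer genes of these lists were called lower. In shDouble 2 of the other acute phase proteins, 3 complement components, 1 regulator, 3 receptors and partners and 8 inducers and factors were called lower. In shMap3k7 the counts were 1, 2, 0, 2 and 8 in the same order. Calls over all genes fell as well with counts summed per line, from 3413 to 554 in shDouble and from 1712 to 400 in shMap3k7. With limma voom, 2 complement components and none of the regulators were called in shMap3k7.

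**Figure D4:**
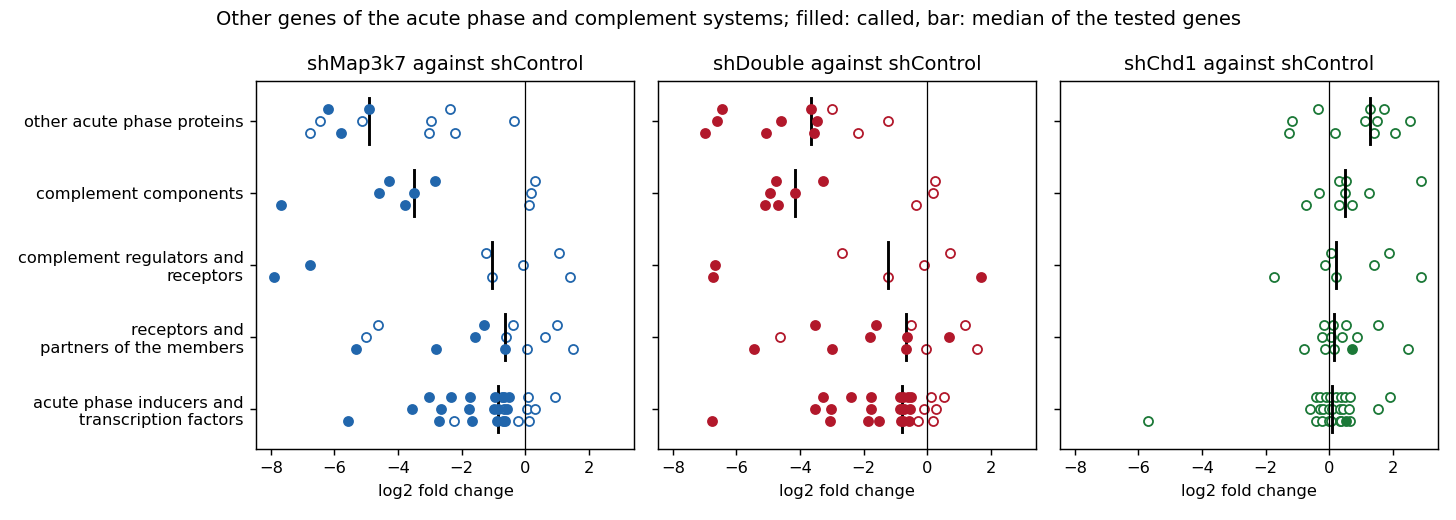
Log2 fold changes (horizontal) of the tested genes of 5 lists (vertical) in the 3 comparisons with shControl, filled where called, with the median of each list as a bar. The called complement components lie between -4.59 and -2.82 in shMap3k7 apart from C4b, which had 0 counts there and is drawn, like other genes at 0, at a fitted value that is no bound, and in shChd1 2 genes of the lists are called.

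The summed levels of neutrophil and fibroblast markers were lower with Map3k7 knockdown, as these genes were, and that of leukocyte markers was not. The 9 leukocyte markers summed to 1.45 to 2.37 CPM in shControl, 2.28 to 3.91 in shMap3k7 and 1.93 to 4.11 in shDouble. Only 2 of them were tested, and 1 was called higher in shDouble, where 10.2% of all genes were. Of 8 neutrophil genes, Elane and Mpo were at 0 in all groups, and the summed level, mainly of Ltf and S100a8, was 24.9 to 190 CPM in shControl, 44.9 to 71.1 in shChd1, 0.520 to 0.869 in shMap3k7 and 0.773 to 1.51 in shDouble. Both Ltf, which encodes the iron-binding lactoferrin, and S100a8 were called lower in shMap3k7 and shDouble, where 7.08% and 13.6% of all genes were. They were the only 2 of the 8 tested. Of 8 fibroblast genes, 5 were tested, of which 3 fell in shMap3k7 and 5 in shDouble, against the same 7.08% and 13.6%. The summed level of the 8 was 26.4 to 100 CPM in shControl, 128 to 134 in shChd1, 7.67 to 10.7 in shMap3k7 and 5.47 to 9.27 in shDouble. Lum was at 0 in every library. Dcn was at 0 in shMap3k7 and shDouble, but in shControl replicates 1 to 3 it was at 8.24, 0.104 and 0 CPM. Of the 6 epithelial genes, 2 rose in shMap3k7, where 4.86% of all genes were called higher. In shDouble 4 rose and 1, Krt5, fell, against 10.2% and 13.6% of all genes. The fall of Krt5 rests on shControl replicate 1, at 48.9 CPM. Replicates 2 and 3 were at 0.052 and 0.110 CPM, below the shDouble libraries at 0.156 to 0.780 CPM. In shChd1 5 of the 6 fell, where 2.24% of all genes were called lower, or 3 with the line as a block, where 142 genes in all were called. The part of these cell types in the levels of the 7 genes was not tested, and in bulk RNA fewer cells of a type and less RNA per cell cannot be told apart.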

How the data were processed

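The 11 libraries were sequenced from mRNA selected with oligo(dT). The deposited raw table holds expected counts per gene symbol, which the authors made with RSEM 1.3.1 and Bowtie2 on GRCm38, per the submitters' processing notes. The deposited normalized table holds log2 values. They departed from log2 of the raw count plus 0.5 by 1 constant per library, to within 5.02e-09, and limma is named in the same notes. Which annotation and strand setting were used is not given in the sources used here. Between 7.83% and 9.11% of a library's values were not whole, but all 77 values of the 7 genes were.

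Counts were rounded, filtered with filterByExpr (minimum count 10, minimum total 15), scaled by TMM and tested in edgeR 4.0.16 with a mean per group, by the quasi-likelihood F-test on all libraries at once. The p-values were adjusted by Benjamini and Hochberg's method across 14346 genes (called at adjusted p under 0.05). SE is the log2 fold change divided by the square root of F. The clone comparison and the block fits used a mean per line plus Chd1 hairpin effects. Libraries are paired by the shared cell line named in the labels. Deviations from group means correlated between same-line libraries at 0.424 to 0.516 for the Map3k7 clones. For control clone 4 the values were -0.116 and 0.116. They are equal and opposite by construction, because both shChd1 libraries derive from that clone, so they cannot measure pairing there. Motifs were searched in the 250 bases before each start. Counting intervals and bounds cover counting error only, since reads carried no molecular identifiers. The fit was also run on simulated counts drawn independently for each library, which does not show how its p-values behave for related libraries. Named genes were all 7, Map3k7 and Chd1, and of each list up to 6 called genes with the smallest adjusted p against shControl plus the most abundant 2. One gene that this rule takes is not reported here. The 7 genes and the lists were chosen with earlier results of these data known. Alternatives were DESeq2 1.42.0, limma 3.58.1 (voom and deposited log2 values), DESeq2 size factors, no filter on low counts, fits of only the groups compared, counts summed per line, the blocks, and leaving out each library. Dates stood in place of 25 gene symbols, and these rows cannot be named.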

Additional observations from a re-analysis of the deposited data

Results flagged for a closer look

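Among the 4 shDouble libraries, the Lcn2 level of 10.7 CPM in clone 7 with construct 96526 stood apart from the other 3 by more than Dixon's 95% critical value allows. It was 1 of 7 genes checked in this group. The check used CPM and not log2 CPM, on which shDouble replicates 1 to 4 were at -0.0041, 0.928, 3.44 and 1.05. The libraries are 2 clones with 2 constructs each and not repeats of 1 condition, so how often chance gives such a flag is not known.

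The Chd1 hairpin libraries lay above control clone 4 and below Map3k7 clone 7, each relative to the same clone without the hairpin, for 4 genes, and the difference between these clones was not tested. Lcn2 was at 1.85 and 1.89 of its parent in control clone 4 and at 0.356 and 0.0651 in Map3k7 clone 7. Lbp was at 1.84 and 1.397 against 0.180 and 0.171, Cp at 1.45 and 1.28 against 0.682 and 0.342, and C3 at 1.01 and 1.14 against 0.765 and 0.520. Between the Map3k7 clones, Lbp was at 1.3998 and 2.82 of its parent in clone 1 against 0.180 and 0.171 in clone 7, and Cp at 1.01 and 1.04 against 0.682 and 0.342, which was not tested either. Construct 96528, a single library in Map3k7 clone 7, had the lower ratio there for Lcn2, Cp and C3. The Lbp ratios of the 2 constructs, from 12 and 10 counts, hardly differed.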

How the results depend on the processing

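Of 870 refits of a single gene of the 7 in a single comparison, 787 kept direction and side of the threshold, 51 lost a call, 5 gained one and 27 changed sign, all 27 in estimates that were not called. Of the 7 genes, 4 were called in shMap3k7 against shControl, which became 1 with only the groups compared and ran from 1 to 4 on leaving out 1 library. In shChd1 the 1 call became 2 with limma voom, 0 with limma on the deposited log2 values, 0 with only the groups compared, 0 with counts summed per line and 0 with the line as a replicate block, and ran from 0 to 2 on leaving out 1 library. In shDouble against shControl the 7 became 4 with counts summed per line and ran from 4 to 7, and against shChd1 they became 4 with counts summed per line. The block changed no other call of the 7 genes. Apart from leaving out a library, the sign changed for Cfb in shChd1 (-0.66 with the replicate block), in shDouble against shMap3k7 (-0.52 with limma voom, -0.44 on deposited values) and in the interaction (0.78 with the block), and for Saa3 between the clones (-0.20 with voom). On leaving out 1 library, Cfb in shChd1 ran from -0.87 to 1.47. Against shMap3k7, shDouble ran from -3.36 to 1.405 for Lcn2, -0.86 to 0.55 for C3, -1.24 to 0.46 for Lbp, -1.71 to 4.25 for Hp, -1.64 to 1.35 for Cp and -0.64 to 0.62 for Cfb, turning without shMap3k7 replicate 2 for all 6 and for Cfb also without shDouble replicate 4. The interaction ran from -4.90 to -0.14 for Lcn2, -2.89 to 3.06 for Hp, -2.75 to 0.24 for Cp and -1.32 to 1.03 for Cfb. Between the clones Saa3 ran from -1.33 to 1.11, Cfb from -1.32 to 0.55 and Lbp from -0.15 to 1.93. Over all genes, calls ran from 227 to 2609 in shMap3k7 (1712 as reported), 0 to 2650 in shChd1 (417), 554 to 3934 in shDouble (3413), 1569 to 6721 in shDouble against shChd1 (6426), 0 to 1006 in the interaction (0) and 2316 to 4219 between the clones (3954). DESeq2 gave no adjusted p for Cfb and Hp in shChd1 and the interaction. With only the groups compared, Cfb and Hp did not pass the filter on low counts in shDouble against shControl, nor Saa3, Cfb and Hp in shDouble against shMap3k7 and between the clones. The cause of these shifts was not tested. Depth limits Saa3, Cfb and Hp in the Map3k7 clones, where a library had 0 to 7 counts of each.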
